A study of Mus musculus with 6 samples.

Results

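The collagen genes encode the chains of the main structural proteins of the extracellular matrix, and 42 of them were measured here in mouse cardiac progenitor cells. They are all genes whose platform annotation names a single symbol of the form Col, a number, the letter a and a number. They are covered by 82 probe sets out of 34945 that name a single gene, and 42 genes out of 18193. The probe set with the highest mean over the 6 arrays stood for each gene. The members were grouped as 11 fibrillar chains, 8 basement membrane chains (type IV and the multiplexins) and 23 others.

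The data came from 6 Affymetrix arrays, 3 wild-type (WT) and 3 mutant (MUT), of cells sorted from mouse embryos at embryonic day 9. The sorted cells carried the Rosa-YFP reporter, switched on by Isl1-cre, a Cre recombinase expressed in the Isl1 domain, which includes the precursors of much of the heart. Mutant embryos additionally carried the β-catenin (loxP ex3) allele, from which Cre yields a stabilised β-catenin, the effector of canonical Wnt signalling. The labels do not name the wild-type embryos' alleles, the number of embryos per sample or the separation of samples by litter, so the tests measure the spread between these samples. Because Cre acts wherever Isl1 has been expressed, the sorted population is a lineage and not a single cell type. In such bulk samples, fewer cells of a type and less RNA per cell cannot be told apart.

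Collagen chains wind around each other into a rope-like helix. Fibrillar chains form the banded fibrils of mesenchyme and cartilage, type IV chains form the sheet-like network of basement membranes, and the remaining types coat fibrils, anchor cells or span the cell membrane. In the early heart, basement membranes underlie the endocardium, the myocardium and the pharyngeal epithelia, and fibrillar collagens mark mesenchyme.

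Over all genes, the correlation between any pair of arrays ran from 0.979 to 0.989. On the first principal component the WT arrays lay between −21.6 and −20.5, MUT arrays 2 and 3 at 33.0 and 29.4, and MUT array 1 at 1.21, between the groups. Of the lineage genes, Isl1 had values of 9.24, 9.36 and 9.77 on WT arrays 1, 2 and 3, with 8.72, 8.61 and 7.49 on the MUT arrays, and Tbx1, Fgf10 and Hand2 were also above background in both groups. The targeted gene, Ctnnb1, was at 12.98 ± 0.03 in WT and 12.97 ± 0.04 in MUT samples (mean ± SD, n = 3), a level that does not show whether exon 3 was removed. Background was set at 4.85 on the log2 scale, the 95th percentile of 27 bacterial control probe sets. Markers of primitive red cells were bright on every array as well, with a mean level over 6 genes of 10.9 to 11.4 in wild type and 10.3 to 11.6 in mutant cells.

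No collagen gene passed the test over all genes. With limma and Benjamini-Hochberg adjustment over 18193 genes, 0 of 42 collagens were called at an adjusted p under 0.05, where 0.066% of all genes were called higher in mutant cells and 0% lower. At an unadjusted p under 0.05, 7 collagens were higher in mutant cells, against 6.76% of all genes, and 0 were lower, against 4.84% of all genes. The 7, which make up 16.7% of the members, were Col4a1, Col4a2, Col4a6, Col15a1, Col11a1, Col26a1 and Col8a2. Values were higher in mutant cells for 29 collagens (69%), against 44.7% of all genes, and the median difference was 0.18 on the log2 scale against −0.03 for all genes. The basement membrane chains had a median difference of 0.51, the fibrillar chains 0.19 (0.049 without MUT array 2) and the others 0.14 (0.079 without WT array 2). The fibrillar median was the value of Col24a1, a gene below background in both groups. Without the 40% dimmest genes the medians were 0.58 for the basement membrane chains, 0.30 for the fibrillar chains and 0.23 for the others. Leaving out each array in turn gave 6 to 8 collagens higher at an unadjusted p under 0.05, and Col4a2, Col26a1 and Col11a1 were among them in 6 of 6 cases.

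**Figure D1:**
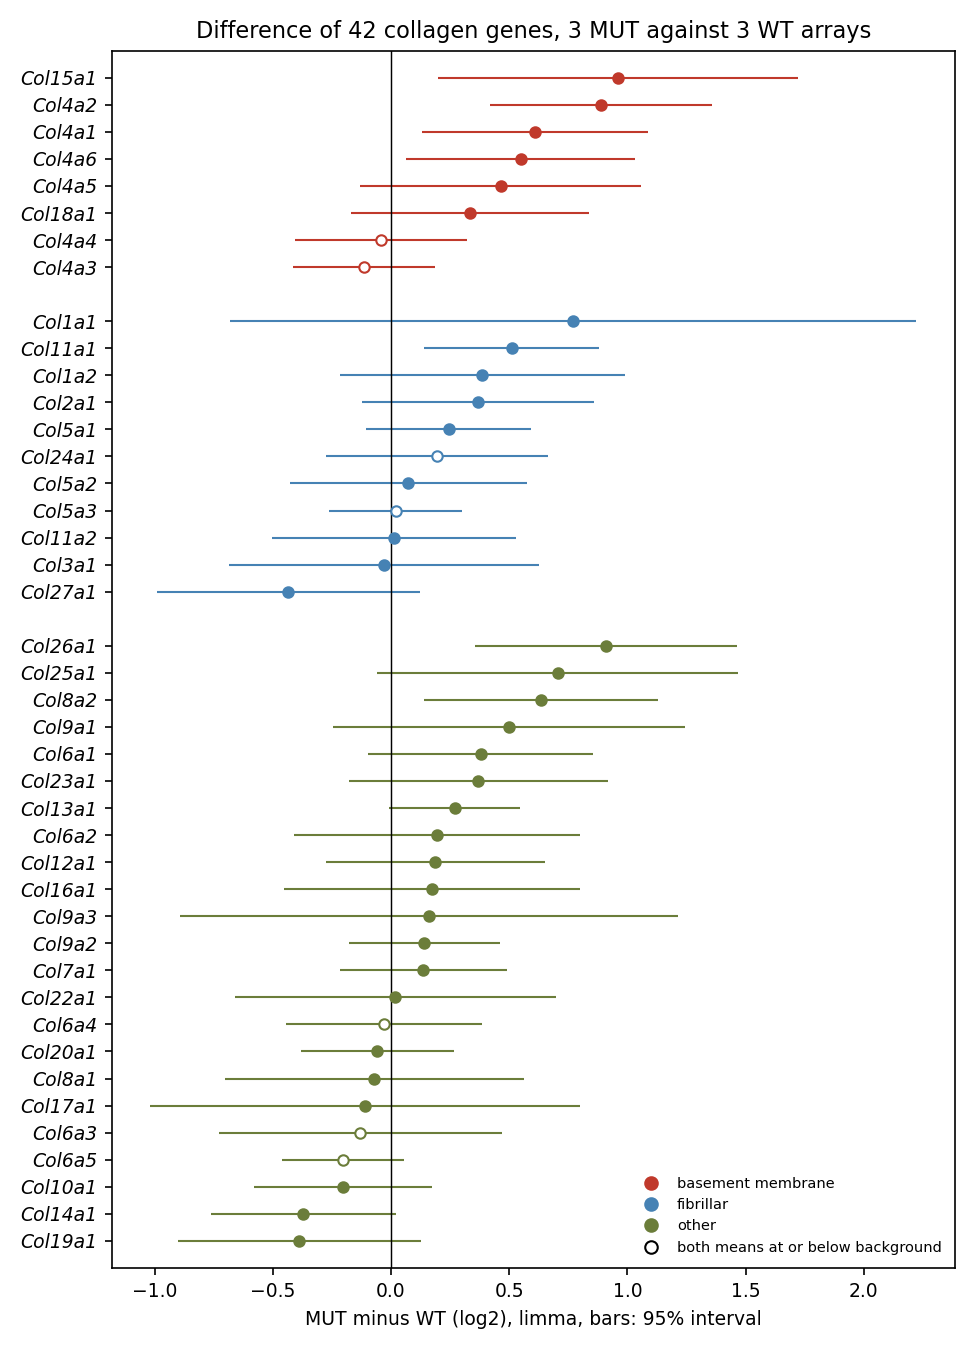
Mutant minus wild-type difference of each of the 42 collagen genes (horizontal axis, log2), by class, with limma's 95% interval as bars and open points for the 7 genes at or below background in both groups. The intervals of Col15a1, Col4a2, Col4a1, Col4a6, Col11a1, Col26a1 and Col8a2 lie above 0, and none lies wholly below 0.

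In 7 collagens both group means were at or below background: Col4a3, Col4a4, Col5a3, Col24a1, Col6a3, Col6a4 and Col6a5. Their differences, from −0.20 (Col6a5) to 0.19 (Col24a1), are not measured changes. Among them was Col6a3, a chain of the beaded filament type VI, at 3.50 ± 0.42 and 3.37 ± 0.36 (mean ± SD, n = 3, wild type and mutant). Of the 42, 35 were above background in at least 1 group.

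The basement membrane chains stood highest as a class. Col4a1 and Col4a2 encode the ubiquitous chains of type IV collagen, lie head to head and are known to share a promoter. The RefSeq windows (build GRCm38.p6) run from 250 bases before to 50 after the annotated start, and are shown because these neighbours were higher together. The annotated starts of Col4a1 (chr8:11312777-11313076, minus strand) and Col4a2 (chr8:11312555-11312854, plus strand) lie 21 bases apart on opposite strands, and the windows share 78 bases. Capitals mark matches, on either strand, to any of 5 short motifs. These were CTTTGA, the core bound by TCF and LEF, the DNA-binding partners of β-catenin; ACGTG, the core through which hypoxia-inducible factors act; CCAAT, a promoter element bound by NF-Y; GGGCGG, the GC box bound by Sp1; and TATAAA, the TATA box.
Col4a1: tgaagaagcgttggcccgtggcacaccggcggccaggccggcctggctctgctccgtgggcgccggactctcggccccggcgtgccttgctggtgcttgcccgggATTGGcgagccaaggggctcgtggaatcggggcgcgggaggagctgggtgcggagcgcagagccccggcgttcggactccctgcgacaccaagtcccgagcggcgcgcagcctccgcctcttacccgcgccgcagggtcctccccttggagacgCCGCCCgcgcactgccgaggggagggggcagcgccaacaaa
Col4a2: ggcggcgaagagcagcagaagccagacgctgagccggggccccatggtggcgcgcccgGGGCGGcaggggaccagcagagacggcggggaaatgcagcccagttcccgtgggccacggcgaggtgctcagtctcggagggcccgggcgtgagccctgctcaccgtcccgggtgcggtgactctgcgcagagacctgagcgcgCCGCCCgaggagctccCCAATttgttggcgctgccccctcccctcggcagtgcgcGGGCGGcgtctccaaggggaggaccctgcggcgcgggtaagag
The Col4a1 window held CCAAT at −145 and GGGCGG at 10, both on the opposite strand. The Col4a2 window held CCAAT at −32 and GGGCGG at −192, −48 and 8. The GC box at 10 in the Col4a1 window and that at 8 in the Col4a2 window are the same bases, chr8:11312812-11312817. Neither window held the TCF and LEF core or the hypoxia core. These windows were rich in G and C, at 74.0% and 73.7% against a median of 52.7% over all windows.

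Col4a1 read 10.80, 11.52 and 10.87 on WT arrays 1, 2 and 3 and 11.57, 11.70 and 11.75 on the MUT arrays. The MUT arrays were close together and all above the WT arrays, though WT array 2 came within a small margin of MUT array 1. The difference was 0.61 (SE 0.20, 1.53-fold), which did not pass (limma adjusted p = 0.346). A separate Col4a1 probe set gave 0.86, with the groups again not overlapping.

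For Col4a2 the WT arrays read 8.40, 8.86 and 8.23 and the MUT arrays 9.29, 9.23 and 9.64. The groups were separate, and WT array 2 was again the highest of its group. This gene had the smallest adjusted p of all collagens, with a difference of 0.89 (SE 0.20, 95% interval 0.42 to 1.36, 1.85-fold; limma adjusted p = 0.215). The difference was 0.94 without MUT array 1.

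Groups did not overlap, with MUT arrays higher, for 7 of 42 collagens against 8.64% of all genes, and with MUT arrays lower for 3 against 9.18%. Among the basement membrane chains, 3 of 8 were separate in the higher direction, namely Col4a1, Col4a2 and Col4a6.

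Col4a5 and Col4a6 encode a further pair of type IV chains, found in smooth muscle and epithelial basement membranes, and lie head to head on the X chromosome, with annotated starts 1343 bases apart. Col4a6 read 7.25, 7.22 and 7.51 on the WT arrays and 7.73, 7.59 and 8.31 on the MUT arrays. MUT array 3 stood out as the highest, and MUT array 2 lay just above WT array 3. The difference was 0.55 (SE 0.21; limma adjusted p = 0.389), and 0.33 without MUT array 3. Its companion Col4a5 read 7.76, 7.58 and 7.99 against 7.74, 8.74 and 8.24, so that MUT array 1 fell within the wild-type range. The difference of Col4a5 was 0.46 (SE 0.25, 95% interval −0.13 to 1.06). The second probe sets gave 0.68 for Col4a6 and 0.50 for Col4a5.
The Col4a6 window (chrX:141474027-141474326, minus strand) is shown beside those of the chromosome 8 pair.
Col4a6: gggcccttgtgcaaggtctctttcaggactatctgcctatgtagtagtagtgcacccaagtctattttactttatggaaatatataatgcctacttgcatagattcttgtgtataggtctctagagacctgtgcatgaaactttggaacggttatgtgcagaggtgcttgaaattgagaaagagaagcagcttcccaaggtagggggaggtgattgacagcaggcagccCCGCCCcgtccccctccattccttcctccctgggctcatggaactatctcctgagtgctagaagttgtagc
It held GGGCGG at −21 on the opposite strand, and its GC content was 48.3%. Xist, transcribed from the inactive X chromosome, differed widely between arrays of both groups, at 5.46, 12.63 and 12.79 on the WT arrays and 12.13, 7.54 and 12.44 on the MUT arrays. Kdm5d, a gene of the Y chromosome, read 9.84, 2.82 and 3.52 on the WT arrays and 8.67, 9.92 and 9.08 on the MUT arrays, so that it was high on every MUT array and on WT array 1 alone of the wild type. The part of embryo sex in the values of these X-linked genes was not tested. Col4a3 and Col4a4, the third head-to-head pair and known from the mature kidney filter, were below background.

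The multiplexins Col15a1 and Col18a1 bear heparan or chondroitin sulphate and sit at the border of the basement membrane. Col15a1 read 6.92, 6.30 and 6.11 on the WT arrays and 8.00, 6.82 and 7.39 on the MUT arrays. WT array 1 was above MUT array 2, so the groups overlapped. The difference was the largest of the 42 at 0.96 (SE 0.33, 1.95-fold; limma adjusted p = 0.348) and 0.66 without MUT array 1. In Col18a1, whose C-terminal fragment is endostatin, WT array 2 at 9.59 was above MUT arrays 1 and 2 at 9.35 and 9.39, while the other WT arrays read 8.98 and 8.97 and MUT array 3 read 9.81. The difference was 0.33 (SE 0.22), and 0.62 from a second probe set. It was 0.19 without MUT array 3 and 0.54 without WT array 2. The Col15a1 window (chr4:47207762-47208061, plus strand) is shown because it was the only 1 of the 7 basement membrane windows to hold CTTTGA, at −130 on the opposite strand.
Col15a1: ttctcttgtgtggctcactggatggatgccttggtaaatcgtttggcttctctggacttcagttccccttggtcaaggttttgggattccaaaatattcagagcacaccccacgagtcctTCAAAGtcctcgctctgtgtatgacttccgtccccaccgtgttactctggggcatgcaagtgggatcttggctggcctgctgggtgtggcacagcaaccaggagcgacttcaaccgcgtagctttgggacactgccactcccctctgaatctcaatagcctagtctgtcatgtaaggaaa
Over the 33 collagens with a window in the table, CTTTGA was present in 9 (27.3%, against 16.0% of all 32851 windows). The hypoxia core was present in 4 (12.1%, against 19.6%), the CCAAT element in 13 (39.4%, against 37.4%), the GC box in 21 (63.6%, against 35.7%) and the TATA box in 5 (15.2%, against 13.6%). The matches to CTTTGA lay in Col15a1, Col5a3, Col13a1, Col19a1, Col20a1, Col6a1, Col6a2, Col9a1 and Col9a2, of which only Col15a1 was among the 7 higher at an unadjusted p under 0.05. Col26a1, also among the 7, had no window and was not searched. These are matches to letters in a window and not binding sites.

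**Figure D2:**
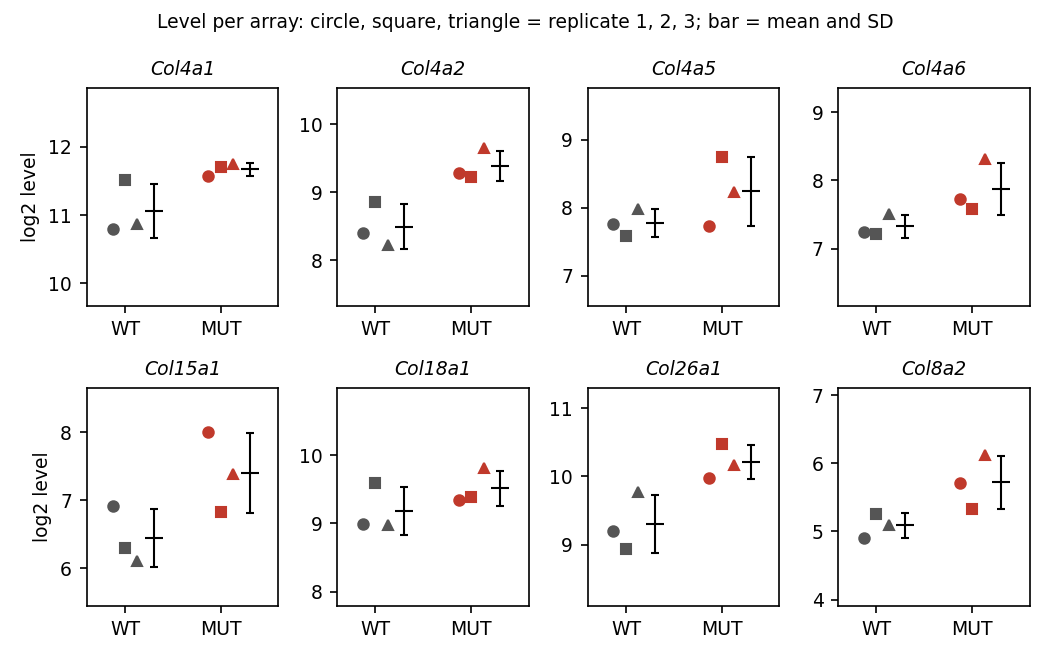
Log2 level (vertical axis, of equal span in every panel) of 6 basement membrane collagens and of Col26a1 and Col8a2 on each array, wild type in grey and mutant in red, with the group mean and SD (n = 3) as bars. The groups are separate for Col4a1, Col4a2, Col4a6, Col26a1 and Col8a2, and overlap for Col4a5, Col15a1 and Col18a1.

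Other basement membrane components were also higher in value. Of 18 measured laminins, nidogens and other partners, 16 had higher values (against 44.7% of all genes), 8 were higher at an unadjusted p under 0.05 (against 6.76%) and 0 were lower (against 4.84%), and 0 passed the adjusted test; the median difference was 0.45. Nid1, which links laminin to type IV collagen, differed by 0.69 (SE 0.16), Lamb1, a laminin β chain, by 0.86 (SE 0.21), and Nid2 by 0.73 (SE 0.19). Relative to the wild-type mean, the mean of the basement membrane collagens was −0.02, 0.12 and −0.10 on WT arrays 1, 2 and 3 and 0.40, 0.42 and 0.54 on the MUT arrays. For the partners it was −0.01, 0.12 and −0.12 against 0.21, 0.47 and 0.49. In both lists WT array 2 was the highest and array 3 the lowest of the WT arrays.

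Marker lists of other cell types differed in direction. Over all genes the shares were those given above, 44.7% with higher values and, at an unadjusted p under 0.05, 6.76% higher and 4.84% lower. Endothelial markers had higher values for 11 of 11 genes, 8 of them at an unadjusted p under 0.05 (median 0.71), with Sox17 at 1.80 and Flt1 at 1.66. Their mean level was 7.14 to 7.89 on the WT arrays and 8.18 to 8.58 on the MUT arrays, and all 11 were above background. Relative to the wild-type mean, endothelial markers stood at 0.13, 0.31 and −0.44 on WT arrays 1, 2 and 3. Array 2 was the highest and array 3 the lowest, the same order as for the mean of the basement membrane collagens. Surface ectoderm markers had this order too, at −0.10, 0.31 and −0.21. On MUT arrays 1, 2 and 3 endothelial markers stood at 0.60, 0.99 and 0.98 and surface ectoderm markers at 0.37, 0.67 and 1.37. The basement membrane collagens stood there at 0.40, 0.42 and 0.54. Among single collagens, the highest WT array was array 2 for Col4a1, Col4a2 and Col18a1, array 3 for Col4a5 and Col4a6, and array 1 for Col15a1. Surface ectoderm markers had higher values for 9 of 9 genes, 3 at an unadjusted p under 0.05 (median 0.83). Krt19 stood at 1.89, and Grhl3, with a wild-type mean below background, at 1.08. The mean level of these markers was 8.18 to 8.71 in wild type and 8.77 to 9.77 in mutant cells. The yolk sac endoderm list, whose parietal layer is rich in type IV collagen, had a median of 0.00 (5 of 9 with higher values). Within it Sparc, which many cells make, stood at 0.71, Cubn at 0.79 and Ttr at −2.87. Afp, also in the list, varied widely within each group. It read 4.08, 11.51 and 11.52 on the WT arrays and 2.60, 9.46 and 10.00 on the MUT arrays. The list had a mean level of 6.71 to 8.23 in wild type and 6.40 to 7.70 in mutant cells. The part of these cells in the collagen values was not tested.

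**Figure D3:**
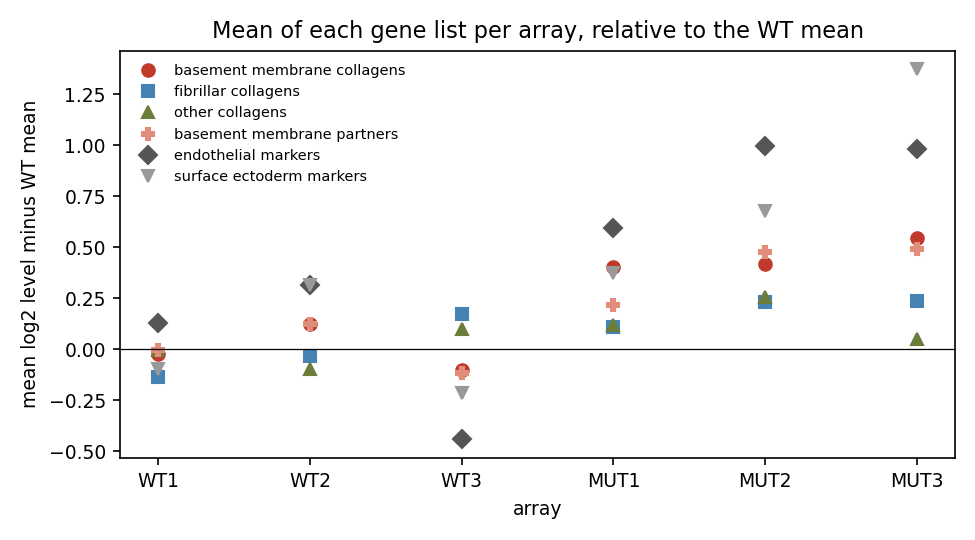
Mean log2 level of each gene list on each array (horizontal axis), minus its wild-type mean (vertical axis), 1 point per list and array. The basement membrane collagens lie between −0.10 and 0.12 on the WT arrays and between 0.40 and 0.54 on the MUT arrays, while the means of the fibrillar and other collagens overlap between the groups.

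The fibrillar chains differed among themselves. Of 11, 9 had higher values (against 44.7% of all genes). At an unadjusted p under 0.05, 1 was higher (9.09%, against 6.76% of all genes) and 0 were lower (against 4.84%). The higher 1 was Col11a1, a minor chain that is built into fibrils of cartilage and sets their thickness. Col11a1 read 7.78, 7.29 and 7.73 on the WT arrays and 8.14, 8.10 and 8.09 on the MUT arrays. The MUT arrays were nearly alike (SD 0.02) and above every WT array. The difference was 0.51 (SE 0.16, 1.42-fold; limma adjusted p = 0.314), and the second probe set, below background, gave 0.36.

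Col2a1, the main fibrillar chain of cartilage, which is also made by notochord and early epithelia, read 11.74, 11.22 and 11.20 against 12.08, 11.64 and 11.53. Replicate 1 was the highest in each group, and WT array 1 was above MUT arrays 2 and 3. The difference was 0.37 (SE 0.21, 95% interval −0.12 to 0.86), and 0.20 without MUT array 1. Sox9, the activator of Col2a1 and Col11a1 in cartilage, differed by 0.31 (SE 0.13), with the groups not overlapping. In the list of chondrogenic and notochordal genes 4 of 6 had higher values (median 0.21), and Shh, secreted by notochord and endoderm, stood at −1.26.

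Type I collagen is the main fibril of mesenchyme. Its chain Col1a1 varied more between arrays of a group than between the groups. Col1a1 read 7.49, 8.84 and 9.82 on the WT arrays and 8.53, 9.80 and 10.13 on the MUT arrays. Its pooled SD within groups, 1.02, was larger than that of 99.6% of all genes, and the difference of 0.77 (SE 0.62) had a 95% interval of −0.68 to 2.22. It was 0.16 without WT array 1, 1.32 without WT array 3, 1.25 without MUT array 1 and 0.45 without MUT array 3. The second Col1a1 probe set gave 0.87. Its partner Col1a2 read 10.03, 10.35 and 10.93 against 10.51, 10.81 and 11.13, with the same arrays lowest and highest in each group. For Col1a2 the difference was 0.39 (SE 0.26), while 2 further probe sets gave 0.00 and −0.10. It was 0.18 without WT array 1, 0.63 without WT array 3 and 0.23 without MUT array 3.

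Col3a1, which forms thin fibrils with type I, read 10.10, 10.43 and 11.22 against 10.38, 10.79 and 10.49. WT array 3 was the highest of all, and the difference was −0.03 (SE 0.28, 95% interval −0.69 to 0.63). In wild type, array 1 was the lowest and array 3 the highest for Col1a1, Col1a2 and Col3a1 alike, and MUT array 1 was the lowest MUT array for each. The type V chains Col5a1 and Col5a2, which start fibrils, did not share the wild-type order, as WT array 1 was the highest WT array for each. MUT array 1 was the lowest MUT array for Col5a2 but not for Col5a1.

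Col5a1 read 9.40, 8.92 and 9.20 against 9.44, 9.44 and 9.37, a difference of 0.24 (SE 0.15), or 0.12 without WT array 2. Col5a2 read 8.42, 7.98 and 7.83 against 7.79, 8.29 and 8.36, a difference of 0.07 (SE 0.22) with overlapping groups. Col5a2 and Col3a1 are neighbours on chromosome 1, and neither differed beyond its spread. The remaining chains were Col11a2 at 0.01 and, below background, Col5a3 and Col24a1.

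Col27a1, a fibrillar chain of developing cartilage, was the lowest of the class. It read 7.98, 8.11 and 7.97 on the WT arrays and 7.86, 7.01 and 7.88 on the MUT arrays. The groups did not overlap, though MUT arrays 1 and 3 lay just under wild type and array 2 carried most of the gap. The difference was −0.43 (SE 0.24; limma adjusted p = 0.521) and −0.15 without MUT array 2. In the second probe set the MUT arrays, at 6.40, 6.57 and 6.48, were closer together and below the WT arrays at 6.92, 6.83 and 7.08, a difference of −0.46.

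**Figure D4:**
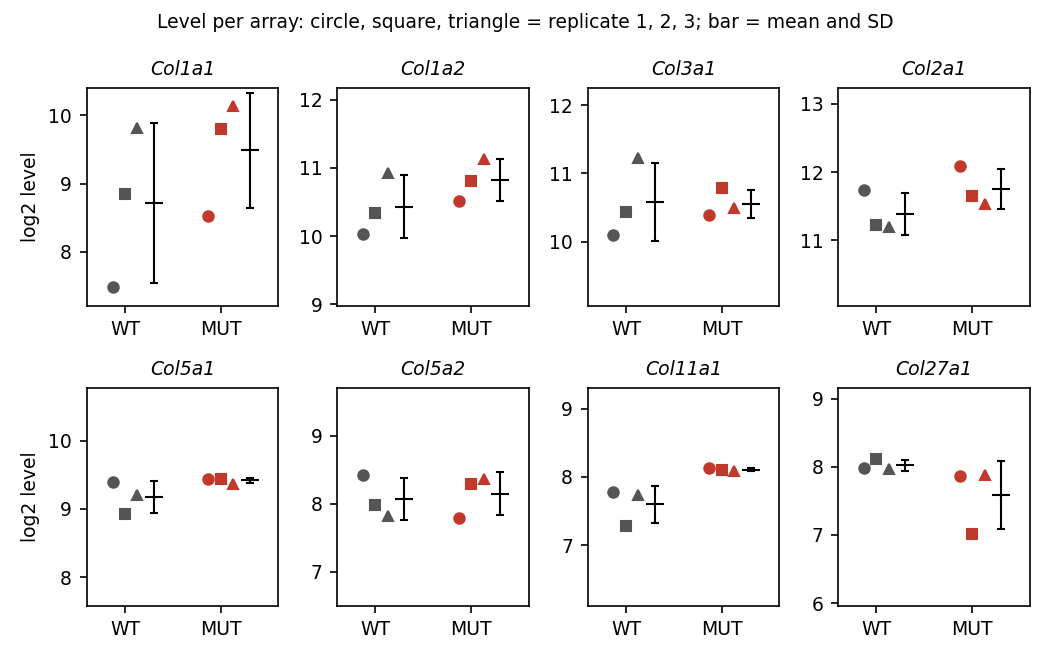
Log2 level (vertical axis, of equal span in every panel) of 8 fibrillar collagens on each array, wild type in grey and mutant in red, with the group mean and SD (n = 3) as bars. Col1a1 spans 7.49 to 10.13 with overlapping groups, and Col11a1 and Col27a1 are separate in opposite directions.

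Of the 23 other collagens, 14 had higher values (against 44.7% of all genes). At an unadjusted p under 0.05, 2 were higher (against 6.76% of all genes) and 0 were lower (against 4.84%). Col26a1, a short secreted collagen with an EMI domain, read 9.20, 8.93 and 9.77 on the WT arrays and 9.98, 10.48 and 10.17 on the MUT arrays. All MUT arrays were above all WT arrays. The difference was 0.91 (SE 0.24, 95% interval 0.35 to 1.46, 1.88-fold; limma adjusted p = 0.241), and 0.61 from a second probe set. Without MUT array 1 it was 1.02.

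Col8a2 belongs to the short-chain network collagens, known from corneal and vascular subendothelial matrix. It read 4.90, 5.26 and 5.10 on the WT arrays and 5.71, 5.34 and 6.12 on the MUT arrays, a separate but dim signal close to background. The difference was 0.63 (SE 0.21, limma adjusted p = 0.346), while its partner chain Col8a1 stood at −0.07. The probe sets of Col8a1 ran from −0.55 to 0.06, and those at both ends were below background.

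Of the membrane-spanning collagens, Col13a1, Col25a1 and Col23a1 had higher values in mutant cells, and Col17a1 had a lower value that was within its SE. Col13a1, found at cell contacts, read 7.32, 7.22 and 7.35 against 7.48, 7.67 and 7.54, a small separate difference of 0.27 (SE 0.12; limma adjusted p = 0.447). Col25a1 stood at 0.70 (SE 0.33) with overlapping groups and a second probe set at −0.14, and Col23a1 at 0.37 with probe sets from −0.03 to 0.37. Col17a1, the hemidesmosome collagen of epithelia, stood at −0.11 (SE 0.39), with a pooled SD above that of 97.3% of genes. Col7a1, which anchors epithelia to the stroma, stood at 0.14.

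Type VI collagen forms beaded filaments around mesenchymal cells. Col6a1 read 4.71, 4.77 and 5.27 on the WT arrays and 5.11, 5.60 and 5.18 on the MUT arrays, near background, a difference of 0.38 (SE 0.20), or 0.23 without MUT array 2. Col6a2 read 5.79, 6.75 and 6.76 against 6.63, 6.69 and 6.58. WT array 1 alone was low, and the difference was 0.19 (SE 0.26), or −0.13 without that array. Both groups overlapped in these neighbouring genes.

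The collagens that coat fibrils, the FACIT group, ran from −0.39 to 0.50. Col14a1 read 5.43, 5.24 and 5.80 against 5.23, 5.09 and 5.03, which is lower on every MUT array by a narrow margin, with a difference of −0.37 (SE 0.17; limma adjusted p = 0.453), and −0.22 without WT array 3. Its probe sets disagreed in sign, from −0.37 to 0.51, the last from a probe set with a mean over the 6 arrays below background. The remaining probe set, above background, gave −0.14. Col19a1 stood at −0.39, with a mutant mean of 4.83, just below background. Col20a1 stood at −0.06, Col22a1 at 0.02, Col16a1 at 0.17 and Col12a1 at 0.19. The type IX chains, which coat type II fibrils, were Col9a1 at 0.50 (SE 0.32), Col9a2 at 0.14 and Col9a3 at 0.16 (SE 0.45), the last with a pooled SD above that of 98.5% of genes. Col10a1, of hypertrophic cartilage, stood at −0.20. Col9a1 and Col19a1 are neighbours on chromosome 1 with differences of opposite sign.

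Probe sets allow a check within genes. Of 27 collagens with several probe sets, all probe sets of a gene had the same sign in 17 and differed in 10. Both counts include probe sets with a mean at or below background. Probe sets above background differed in sign for Col1a2, Col22a1, Col23a1 and Col25a1. For Col14a1, Col20a1, Col8a1, Col9a3, Col4a4 and Col5a3 the signs differed only through probe sets at or below background. Signs were alike for Col1a1, Col4a1, Col4a5, Col4a6, Col11a1, Col12a1, Col18a1, Col26a1 and Col27a1 among others. Col12a1 had the widest gap of a single sign, from 0.19 to 0.81, the last from a probe set with a mean below background. Across the family the spread within groups was large: 31 of 42 members had a pooled SD above the median of all genes, 0.20.

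**Figure D5:**
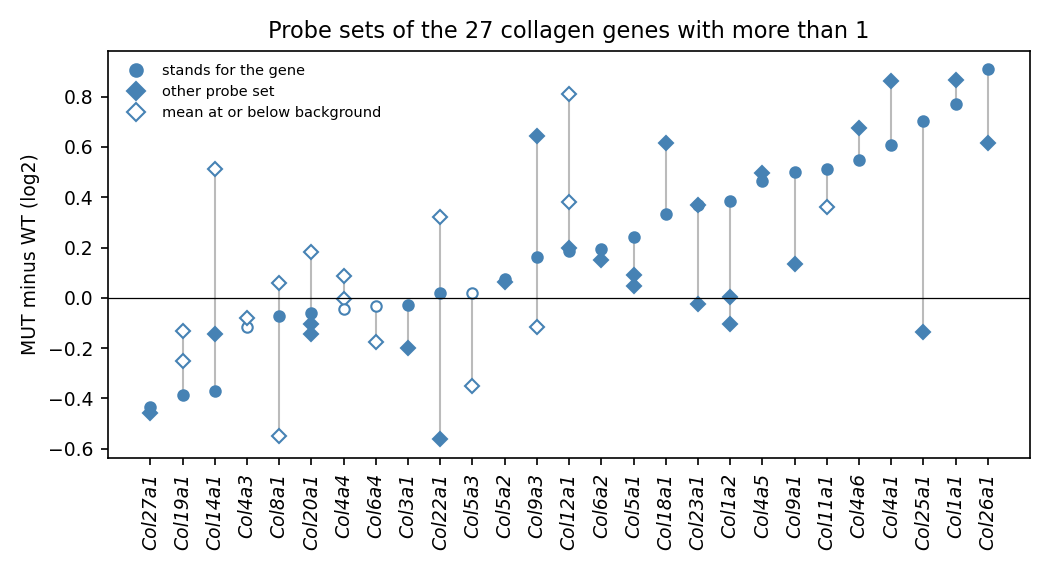
Mutant minus wild-type difference (vertical axis, log2) of every probe set of the 27 collagen genes with more than 1, circles for the probe set that stood for the gene and open symbols for means at or below background. Probe sets of Col4a1, Col4a6, Col1a1 and Col26a1 all lie above 0, those of Col27a1 both lie below 0, and those of Col14a1 and Col22a1 fall on either side of 0.

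Of 27 measured genes of collagen synthesis, which are enzymes, chaperones, export factors and enhancers of processing, 0 passed the adjusted test. At an unadjusted p under 0.05, 5 were higher (against 6.76% of all genes) and 2 were lower (against 4.84%), and the median difference was 0.20. P4ha2, a subunit of the prolyl hydroxylase that stabilises the helix, read 6.52, 6.73 and 7.24 on the WT arrays and 8.10, 9.27 and 9.02 on the MUT arrays, a difference of 1.97 (SE 0.32; limma adjusted p = 0.131). Plod2, a lysyl hydroxylase, stood at 1.27 (SE 0.27) and P4ha1 at 1.17 (SE 0.28). The 2 with lower values were P4ha3, a further catalytic subunit of the prolyl hydroxylase, at −0.64 (SE 0.21) with groups not overlapping, and Mia3, which helps to export collagen, at −0.40 (SE 0.17). MUT array 1 was the lowest MUT array for P4ha2, Plod2 and P4ha1.

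Of 12 fibril partners, 2 were higher at an unadjusted p under 0.05 (against 6.76% of all genes) and 0 were lower (against 4.84%). The median difference was 0.19, and 0 passed the adjusted test. Fmod, a proteoglycan that binds fibrils, read 5.44, 5.90 and 5.40 against 6.75, 6.87 and 6.80, a difference of 1.23 (SE 0.16; limma adjusted p = 0.0752). Sparc, a collagen-binding protein, stood at 0.71 and fibronectin, Fn1, at 0.38. Of 9 collagen receptors, 1 was lower (Lair1, below background) and 0 were higher by that measure (against 4.84% and 6.76% of all genes). The integrins Itga1 and Itgb1 stood at 0.54 and 0.29. Of 10 genes of collagen breakdown, 1 was higher (against 6.76% of all genes) and 1 was lower (against 4.84%) by the same measure. Timp3, an inhibitor of metalloproteinases held in the matrix, stood at 0.91 (SE 0.17), Mmp9 at −0.40 with a mutant mean below background, and Timp1 at −0.34; the median was 0.06. Of 13 regulators, 3 were higher at an unadjusted p under 0.05 (against 6.76% of all genes) and 0 were lower (against 4.84%). Their median difference was 0.27. The 3 were Ccn2, a matrix protein induced by TGF-β, at 0.96 (SE 0.18), the receptor Tgfbr2 at 0.88 (SE 0.18) and Sox9 at 0.31. None of these genes passed the adjusted test in limma.

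The remaining marker lists are given beside the fibrillar and other collagens. Neural crest markers, whose cells make mesenchyme, had higher values in 5 of 7 genes (median 0.58), against 44.7% of all genes. All 5 were higher at an unadjusted p under 0.05, against 6.76% of all genes. Snai2 stood at 1.14, Sox10 at 1.07 with overlapping groups, Tfap2a at 0.93 and Tfap2b at 0.58. Pax3 at −0.15 and Foxd3 at −0.11 had lower values. The mean level of this list was 8.08 to 8.30 in wild type and 8.53 to 8.90 in mutant cells. Neuronal markers had lower values in 7 of 7 genes (median −0.76, with Neurod4 at −1.74 and Elavl3 at −1.37), with a mean level of 8.20 to 9.15 in wild type and 7.01 to 8.56 in mutant cells. Cardiomyocyte markers had a median of −0.29, with Tnnt2 at −0.76 and Nppa at 1.16, and leukocyte markers −0.33, with Coro1a at −0.47 and Cx3cr1 at −0.35. Primitive red cell markers had a median of −0.18, with Klf1 at −1.02 and Hbb-bh1 at −0.21. The part of these populations in the collagen values was not tested.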

How the data were processed

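RNA of 6 sorted samples was amplified (WT-Ovation Pico), labelled and hybridised to Affymetrix arrays, per the labels' protocols. The values deposited by the authors are log2 levels for 45101 probe sets. How they were background-corrected, summarised and normalized is not given in the sources used here. Their log2 scale was inferred from the range (1.89 to 15.07). Array medians lay between 6.47 and 6.50, so no scaling was added, and a common shift of most genes could have been removed before deposit. The number of arrays limits the precision.

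Probe sets took their gene from GEO's platform annotation, and RefSeq gene identifiers gave current symbols (34741 of 34945 matched); 932 naming several genes, 9160 unnamed here and 64 controls were left out. The test was limma's (version 3.58.1, R 4.3.3), two-sided, with lmFit and eBayes, no covariate, and 4 residual and 3.45 prior degrees of freedom, adjusted over all genes, threshold 0.05. A level of 1 probe set was not set against that of another.

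The members and lists were chosen with earlier results of these data known. All collagens are named. Array values are given for a panel of 14, except that Col6a3, below background, is given by mean and SD only. They are also given for members with an unadjusted p under 0.05 or, above background, groups that do not overlap. Col4a5, outside these rules, is given beside Col4a6. Of each related list the 3 genes with the smallest p are named, of each marker list the 2. P4ha3, Mia3, Sox10, Tfap2a, Foxd3, Pax3, Afp, Ttr and Kdm5d were added after their values were seen. Promoter windows come from RefSeq, build GRCm38.p6; 33 of 42 collagens matched, and the motif letters were chosen with the results known. Alternatives were quantile normalization, median centring, a replicate block, leaving out the 40% dimmest genes, other probe set choices, a trended robust prior, array weights and leaving out each array.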

Additional observations from a re-analysis of the deposited data

How the results depend on the processing

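No collagen was called with limma under any of the 15 alternatives, and the count at an unadjusted p under 0.05 stayed at 6 to 10 genes higher, or 12 of 82 when every probe set was fitted. Lower in mutant cells at that level was 1 with the mean of a gene's probe sets, 1 with every probe set, and 0 to 2 when arrays were left out. Col4a2 and Col26a1 were among the higher genes in 15 of 15 alternatives, Col11a1 in 14, and Col4a1, Col4a6, Col15a1 and Col8a2 in 12. The basement membrane median was 0.65 with the most variable probe set and 0.40 to 0.64 when arrays were left out, and the fibrillar median 0.063 with every probe set and 0.049 to 0.26 when arrays were left out (lowest without mutant array 2). Col14a1 stood at 0.51 with the most variable probe set, whose mean was below background. Differences near 0 turned sign when single arrays were left out: Col3a1 (−0.27 to 0.29), Col5a2 (−0.051 to 0.25), Col6a2 (−0.13 to 0.36) and Col6a3 (−0.35 to 0.071).

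Over all genes the 12 higher calls became 0 with replicate number as a block, 6 with median centring, 1 with the most variable probe set, 1 with the mean of probe sets, and 0 to 81 when arrays were left out (81 without mutant array 1, 0 without wild-type array 2 or mutant array 2 or 3); lower calls were 0 to 11. Deviations of same-numbered arrays correlated at 0.108, −0.0751 and −0.0161 over all genes. With 3 arrays per group, such values cannot settle whether same-numbered samples were paired or handled together. Array 1 alone of the wild-type arrays correlated best with its own number. Under the replicate block 10 collagens were higher at an unadjusted p under 0.05, Col1a1, Col1a2 and Col2a1 in addition. Medians of the related lists moved by less than their spread in 85 of 90 cases.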
